A study of Mus musculus with 2 samples.

Results

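The miR-99/let-7/miR-125 genes form 3 paralogous clusters in the mouse genome, each with a miR-99/100 gene, a let-7 gene and a miR-125 gene in that order along the plus strand. The clusters hold 9 of the 2202 microRNA genes counted here. The 9 were picked by their place in the genome and their names, with earlier results of these data known. Small RNA was sequenced from the left cerebral cortex. The mice were males aged 36 days of B6CASTF1/J, the F1 hybrid of C57BL/6J and CAST/EiJ. The labels name no treatment, and the 2 libraries form 1 group with no second condition. The labels number the animal of replicate 1 as 3 and that of replicate 2 as 4. They call the libraries biological replicates but give both the same donor identifier, so the number of animals is not certain. The data therefore answer how many reads were placed at the clustered genes in cortex, how the genes of a cluster compared in these counts, and how far the libraries differed. With 1 library per numbered animal, any difference between animals cannot be told apart from one between libraries.

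MicroRNAs are cut from hairpins in longer transcripts, and genes that lie close together on a strand can be cut from 1 transcript. The mature strand then guides Argonaute proteins to messenger RNAs, mainly through its seed, bases 2 to 8 from the 5′ end. In the worm Caenorhabditis elegans, let-7 and lin-4, the relative of miR-125, time the steps of larval development. In mammals let-7 and miR-125 repress Lin28, whose protein in turn blocks the maturing of let-7, and both accumulate as neurons differentiate. Targets of the miR-99/100 family include mTOR, a kinase that controls growth.

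The sequences of the 5′ arms show how alike the 3 clusters are. They are the RefSeq entries on GRCm38.p6, printed 5′ to 3′ with the seed in capitals, and each family has 1 seed across its 3 loci.

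miR-99a-5p (Mir99a): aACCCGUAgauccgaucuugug
miR-100-5p (Mir100): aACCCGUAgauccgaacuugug
miR-99b-5p (Mir99b): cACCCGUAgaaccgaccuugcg
let-7c-5p (Mirlet7c-1): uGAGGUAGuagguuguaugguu
let-7a-5p (Mirlet7a-2): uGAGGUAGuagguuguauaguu
let-7e-5p (Mirlet7e): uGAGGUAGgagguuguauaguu
miR-125b-5p (Mir125b-1 and Mir125b-2): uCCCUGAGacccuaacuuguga
miR-125a-5p (Mir125a): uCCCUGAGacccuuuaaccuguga

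Substitutions are written with the first-named sequence's base, the position from 1 at the 5′ end, and the second sequence's base. From miR-99a to miR-100 there is 1 substitution, U16A. From miR-99a to miR-99b there are 4, at A1C, U11A, U16C and U21C. From let-7e to let-7a there is 1, G9U, and from let-7c to let-7a there is also 1, G19A. miR-125a has 24 bases and miR-125b 22, and they share their first 13 bases. The let-7a-5p entry is listed in RefSeq under Mirlet7a-1, and the same bases were found in the Mirlet7a-2 hairpin.

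These sequences bear on what could be counted, since the deposited counts leave out reads that map to several places. The 5′ sequences of Mir99a, Mir99b, Mirlet7e, Mir125a and Mir100 were found in no other annotated microRNA gene. Those of the other 4 genes were each found in 1 more: let-7c-5p in Mirlet7c-2, let-7a-5p in Mirlet7a-1, and miR-125b-5p in both of its loci. The hairpins below are RefSeq's, with the longest stretch that another microRNA gene also holds in capitals. They show that the repeated stretch is the 5′ arm and hardly more.

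Mirlet7c-1 hairpin, chr16:77599657-77599750, plus strand: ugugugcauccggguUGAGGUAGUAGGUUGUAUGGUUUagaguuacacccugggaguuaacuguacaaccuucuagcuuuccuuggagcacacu
Mirlet7a-2 hairpin, chr9:41536716-41536811, plus strand: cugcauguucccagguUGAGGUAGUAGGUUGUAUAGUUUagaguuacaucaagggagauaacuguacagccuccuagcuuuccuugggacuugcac
Mir125b-1 hairpin, chr9:41581926-41582002, plus strand: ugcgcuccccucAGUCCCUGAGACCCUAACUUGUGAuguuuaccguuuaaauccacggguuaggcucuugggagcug

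The stretch had 23 bases in the let-7c-1 and let-7a-2 hairpins, the mature sequence and 1 base after it. In Mir125b-1 and Mir125b-2 it had 24 bases, the mature sequence and 2 bases before it. Longer 5′ reads and reads of the 3′ arm can therefore still be placed at 1 of these loci. The 3′ arms of the 4 genes, with bases 2 to 8 in capitals, were found in no other annotated microRNA gene.

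let-7c-1-3p: cUGUACAAccuucuagcuuucc
let-7a-2-3p: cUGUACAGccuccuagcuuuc
miR-125b-1-3p: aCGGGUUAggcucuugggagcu
miR-125b-2-3p: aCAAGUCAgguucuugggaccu

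The tables give 1 count per gene, so the arm a read came from is not recorded. Mir99a and Mir100 shared at most 16 bases, and Mirlet7e shared 17 with Mir7k, whose mature sequence is let-7k. Mir99b and Mir125a shared no stretch of 15 bases or more with any other microRNA gene.

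Levels are in CPM, own-strand counts scaled so that all microRNA genes of a library sum to 1000000, with SD over n = 2. The libraries held 4273791 and 4010274 own-strand counts in replicates 1 and 2, and a count of 0 would allow up to 0.702 and 0.748 CPM. Multi-mapped reads, which stand outside the gene counts, numbered 5091406 and 4604314. That is 16.6 and 17.8 multi-mapped reads for each read counted at the 9 genes. A read of such a library is a whole small RNA, so counts were not divided by length. Intervals cover counting error only.

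The cluster on chromosome 17 gave most of the counts. It lies within Spaca6, a protein-coding gene known for a sperm membrane protein, and its 3 hairpins fit within less than 1 kb. Mirlet7e, the let-7 gene of the cluster, was the highest of the 9. It had 30268 CPM in replicate 1, against 34522 CPM in replicate 2 (32395 ± 3008 CPM, SD, n = 2), rank 9 and rank 8 of all microRNA genes. It lies at chr17:17830352-17830444 in an intron, and these are its own-strand counts. Gm25927, a microRNA gene annotated on the opposite strand, covers all 93 bases of the hairpin. Gm25927 had 0 own-strand counts in both libraries, while Mirlet7e had 129360 and 138441. In the unstranded column, where strand cannot separate overlapping genes, Mirlet7e has 0 in both libraries. Its own-strand counts equal 42.6% and 46.1% of the reads called ambiguous in that column.

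Mir125a, the miR-125 gene of the same cluster, had 17043 CPM in replicate 1, against 9714 CPM in replicate 2 (13378 ± 5182 CPM, SD, n = 2). It lies at chr17:17830812-17830879, where 47 of the 68 bases of its hairpin overlap a Spaca6 exon. Mir99b, the miR-99/100 gene at chr17:17830188-17830257 in a Spaca6 intron, had 4109.7 CPM in replicate 1, against 6688 CPM in replicate 2 (5399 ± 1823 CPM, SD, n = 2). Replicate 1 was thus the higher library for Mir125a and the lower for Mir99b, 554 bases apart.

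The cluster on chromosome 16 was mostly Mir99a. This gene, at chr16:77598936-77599000 in an intron of the noncoding gene Mir99ahg and, on the opposite strand, of Gm11146, had 14639 CPM in replicate 1, against 8685 CPM in replicate 2 (11662 ± 4210 CPM, SD, n = 2). Mirlet7c-1, 656 bases downstream and within introns of the same genes, had 419 and 562 CPM (490.4 ± 101 CPM, SD, n = 2). Mir125b-2, at chr16:77646273-77646343, lies 46522 bases farther on, still within a Mir99ahg intron, and 4 of its bases overlap the gene C130023A14Rik. It had 313 and 182 CPM (248 ± 93.0 CPM, SD, n = 2). The let-7 and miR-125 genes of the cluster thus stood far below Mir99a in each library, and both are among the 4 genes with a repeated 5′ arm.

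The cluster on chromosome 9 had the fewest counts of the 3. Mir100, at chr9:41531425-41531504, had 4116 CPM in replicate 1, against 2717 CPM in replicate 2 (3416 ± 989.6 CPM, SD, n = 2). It lies in introns of the noncoding genes 3110039I08Rik and Gm49317, and an exon of Gm48742 covers it on the opposite strand. Mir125b-1, the third gene of the cluster, lies within an exon of Gm28119 and had 817 and 1272 CPM (1045 ± 322 CPM, SD, n = 2). Mirlet7a-2, 5211 bases downstream of Mir100, had 126 and 234 CPM (180.1 ± 76.7 CPM, SD, n = 2), which is 538 and 940 counts. It was the lowest of the 9 by mean and in replicate 1, while in replicate 2 Mir125b-2 was lower, at 182 CPM. Replicate 1 was higher for Mir100 and lower for Mirlet7a-2 and Mir125b-1.

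**Figure D1:**
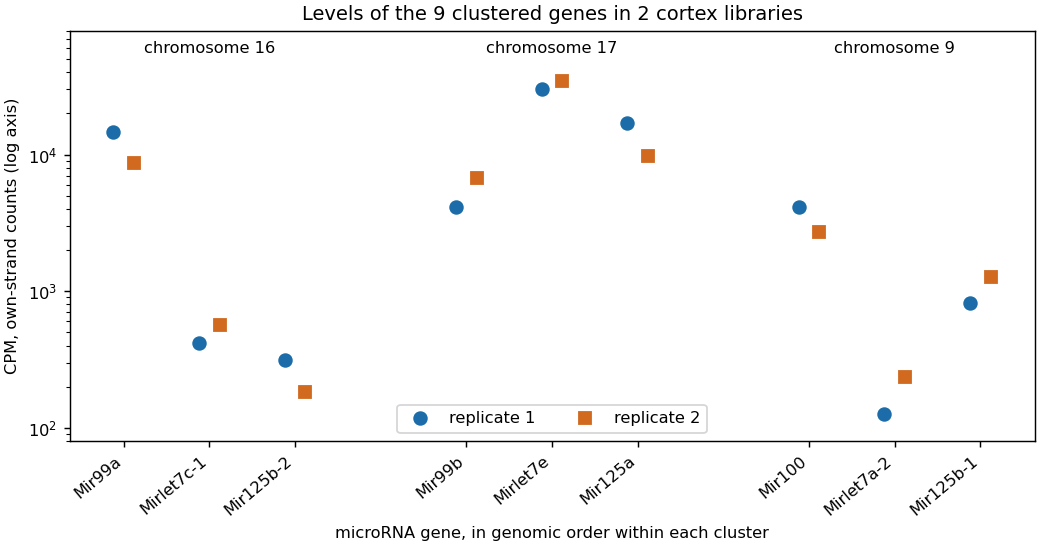
CPM (log axis) of the 9 genes in genomic order within each cluster, with a circle for replicate 1 and a square for replicate 2. Mirlet7e stood highest in both libraries, at 30268 and 34522 CPM. The lowest was Mirlet7a-2 in replicate 1, at 126 CPM, and Mir125b-2 in replicate 2, at 182 CPM.

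All 9 genes had counts in both libraries, and the highest stood 240.4-fold above the lowest in replicate 1 and 189.9-fold in replicate 2. By mean level the order ran Mirlet7e, Mir125a, Mir99a, Mir99b, Mir100, Mir125b-1, Mirlet7c-1, Mir125b-2 and Mirlet7a-2. Of the 8 pairs of neighbours in this order, 3 had overlapping ranges over the libraries: Mir125a and Mir99a, Mir99b and Mir100, and Mir125b-2 and Mirlet7a-2. The order was turned round in 1 library for the last 2 of these pairs. Dividing CPM by hairpin length left the order of the 9 as it was. The 5 genes whose 5′ arm is found at no other microRNA gene ranged from 2717 to 34522 CPM. The 4 genes with a repeated 5′ arm ranged from 126 to 1272 CPM. The second set held 2.33% of the counts of the 9 genes in replicate 1 and 3.48% in replicate 2. These ranges did not overlap among the 9, and the split was not examined over all microRNA genes. Outside the clusters, genes with a let-7 5′ arm listed at more than 1 locus varied. In replicates 1 and 2, Mirlet7f-2 had 3457 and 2867 CPM and Mirlet7c-2 1774 and 1611 CPM, above the lower range. Mirlet7a-1, at 458 and 448 CPM, and Mirlet7f-1, at 190 and 243 CPM, lay within it. The ranges describe reads that could be placed, and the output of the loci cannot be told apart from reads left out as multi-mapped.

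**Figure D2:**
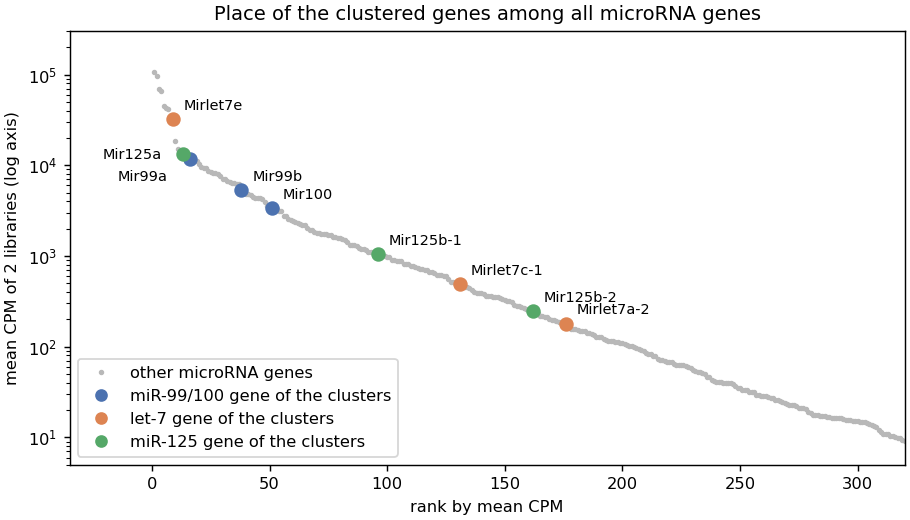
Mean CPM of the 2 libraries (log axis) against rank for the microRNA genes down to rank 320, with the 9 genes in colour by family and the others in grey. Mirlet7e stood at rank 9 and Mirlet7a-2 at rank 176.

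Summed by cluster, the chromosome 17 genes had 51421 CPM in replicate 1, against 50924 CPM in replicate 2. That is 5.14% (exact 95% interval 5.12 to 5.16) and 5.09% (5.07 to 5.11) of all own-strand counts. The log2 ratio of replicate 1 over replicate 2 was -0.0074 (-0.016 to 0.0013) for this sum, the smallest of the 3. The chromosome 16 genes summed to 15371 and 9429 CPM, a log2 ratio of 0.68 (0.67 to 0.70). The chromosome 9 genes summed to 5059 and 4223 CPM, a log2 ratio of 0.24 (0.21 to 0.27). On chromosome 17 all 3 genes have a 5′ arm found at no other microRNA gene. The let-7 and miR-125 genes on chromosomes 16 and 9 have a repeated 5′ arm, whose multi-mapped reads are not in these sums. The order of the clusters is therefore one of placed reads. All 9 together took 7.19% and 6.46% of own-strand counts (6.82% ± 0.514, SD, n = 2).

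Summed by family instead, the 3 let-7 genes had 30813 CPM in replicate 1, against 35318 CPM in replicate 2, of which Mirlet7e gave nearly all. Mirlet7c-1, Mirlet7a-2, Mir125b-1 and Mir125b-2 have a repeated 5′ arm, unlike the other genes. Its multi-mapped reads are missing from the family sums and shares, which thus describe placed reads. The 3 miR-99/100 genes had 22865 and 18090 CPM, and the 3 miR-125 genes 18173 and 11168 CPM. The let-7 genes held 42.9% of the counts of the clusters in replicate 1 and 54.7% in replicate 2. The chromosome 17 sum was therefore nearly equal between the libraries while its make-up was not: its Mir125a part was larger in replicate 1 and its Mir99b and Mirlet7e parts were smaller.

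**Figure D3:**
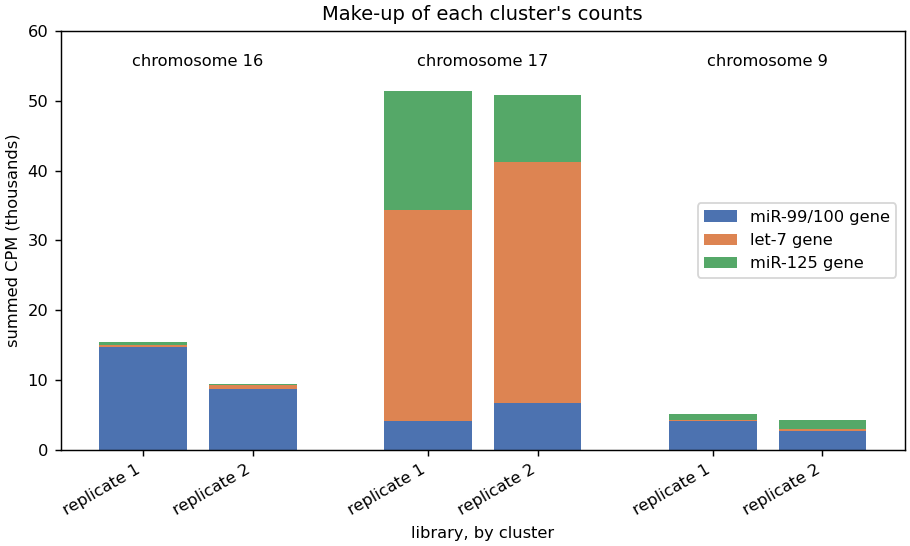
Summed CPM in units of 1000 (linear axis from 0) of each cluster in replicates 1 and 2, with the miR-99/100, let-7 and miR-125 gene of the cluster stacked in colour. The chromosome 17 bars reach 51421 and 50924 CPM, with a Mir125a part of 17043 and 9714 CPM. Multi-mapped reads are not in the bars.

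The libraries were compared gene by gene with an exact two-sided binomial test, scaled by TMM and adjusted by the Benjamini-Hochberg method over all 516 genes with 10 or more counts. The test compares the reads of these libraries, not conditions, and covers counting error only. Of the 9 genes, 4 were higher in replicate 1 and 5 were lower, and their largest adjusted p was 4.78e-22 in the exact binomial test. Over all 516 genes 31.2% were called higher and 26.6% lower. Among the 192 genes with 1000 or more counts, which all 9 have, 45.8% were called higher and 43.8% lower. A call is thus common at this depth. The median log2 ratio was -0.21 over the 9, which is Mirlet7e's own value, and 0.03 over the 192. With unstranded counts, where Mirlet7e has no value, the median of the other 8 was 0.073. The median absolute log2 ratio was 0.72 over the 9 and 0.46 over the 192. Beyond 2-fold lay 0 of the 9 and 14.6% of the 192, a difference that was not tested. The interval of Mirlet7a-2, -1.07 to -0.76, reached beyond 2-fold. The 9 other let-7 genes, outside the clusters, also had 0 beyond 2-fold.

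The 4 genes higher in replicate 1 had log2 ratios between 0.58 and 0.79. Mir125a had a log2 ratio of 0.79 (0.77 to 0.81), Mir125b-2 of 0.76 (0.63 to 0.90), Mir99a of 0.73 (0.71 to 0.75) and Mir100 of 0.58 (0.54 to 0.61). The 5 genes lower in replicate 1 spread more widely. Mirlet7a-2 had a log2 ratio of -0.92 (-1.07 to -0.76), Mir99b of -0.72 (-0.75 to -0.70) and Mir125b-1 of -0.66 (-0.72 to -0.60). Mirlet7c-1 stood at -0.45 (-0.54 to -0.36) and Mirlet7e at -0.21 (-0.22 to -0.20).

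Directions were mixed within the clusters. Every cluster held genes higher and genes lower in replicate 1. By family, 3 of 3 let-7 genes were lower in replicate 1. The miR-99/100 genes had 2 higher and 1 lower, and so had the miR-125 genes. Mir125b-1 and Mir125b-2 went opposite ways, and so did Mir99a and Mir99b. The Mir125b genes share their whole 5′ sequence, and its multi-mapped reads are not counted. Their ratios therefore do not describe miR-125b-5p.

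**Figure D4:**
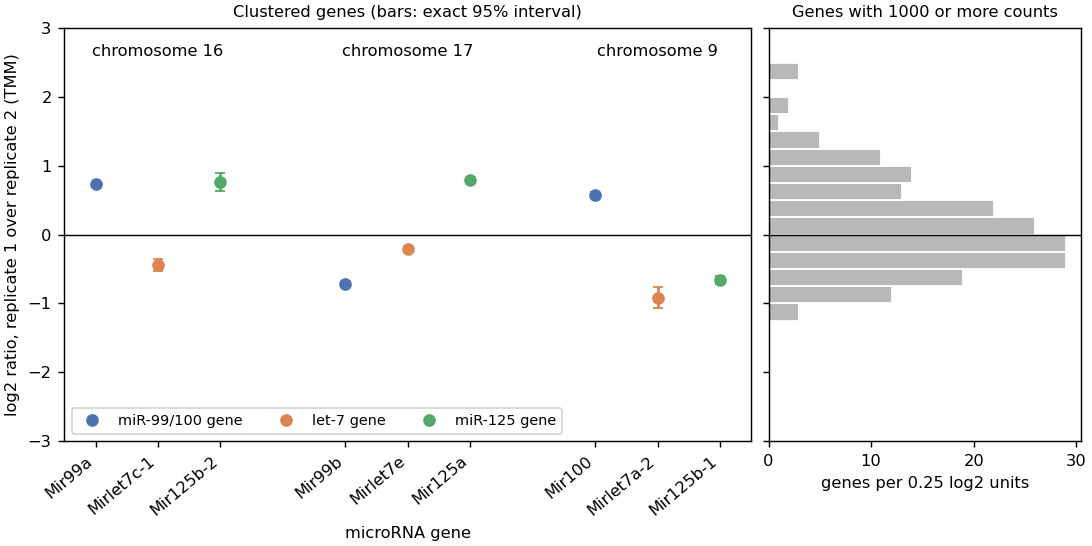
Left, log2 ratio of replicate 1 over replicate 2 (TMM scaling) for the 9 genes, coloured by family, with exact 95% intervals. Right, the number of genes per bin of 0.25 log2 units among the 192 genes with 1000 or more counts, 3 of which lie outside the axis; the 9 genes lie between -0.92 and 0.79.

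Ratios between genes of a cluster need no scaling between libraries. Mir125a exceeded Mir99b 4.15-fold in replicate 1 and 1.45-fold in replicate 2. Mir99b made up 19.4% (19.2 to 19.7) of the reads of this pair in replicate 1 and 40.8% (40.4 to 41.2) in replicate 2. Mirlet7e exceeded Mir125a 1.78-fold and 3.55-fold in replicates 1 and 2. It exceeded Mir99b 7.37-fold and 5.16-fold.

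On chromosome 16, Mir99a exceeded Mirlet7c-1 35.0-fold in replicate 1 and 15.5-fold in replicate 2. It exceeded Mir125b-2 46.7-fold and 47.8-fold, so the ratio of the cluster's outer genes was nearly the same in both libraries, with a log2 change of -0.03. On chromosome 9, Mir100 exceeded Mirlet7a-2 32.7-fold and 11.6-fold, and it exceeded Mir125b-1 5.04-fold and 2.14-fold. Mir125b-1 exceeded Mirlet7a-2 6.49-fold and 5.43-fold. Each of these pairs on chromosomes 16 and 9 holds a gene with a repeated 5′ arm. Multi-mapped reads of that arm are not counted, so these ratios describe placed reads and not the output of the loci.

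The absolute log2 change of the 9 ratios between the libraries had a median of 1.18. The largest was 1.51, for Mir99b and Mir125a, followed by 1.496 for Mir100 and Mirlet7a-2. For scale, 64 other pairs of neighbouring microRNA genes on a strand, at most 60 kb apart and with 1000 or more counts a gene, had a median change of 0.72. Their range was 0.02 to 4.29, and 36 of them lie on chromosome 12. The 6 pairs of direct neighbours within the clusters ranged from 0.26 to 1.496, with a median of 1.09, and 4 of the 6 lay above the median of the other pairs. Of the 64 other pairs, 4 changed at least as much as Mir99b and Mir125a, which are outer genes of their cluster and not direct neighbours. The largest change of direct neighbours, 1.496 for Mir100 and Mirlet7a-2, was also exceeded by 4 of the 64. Changes of this size between genes of 1 cluster were thus not found in these clusters alone.

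**Figure D5:**
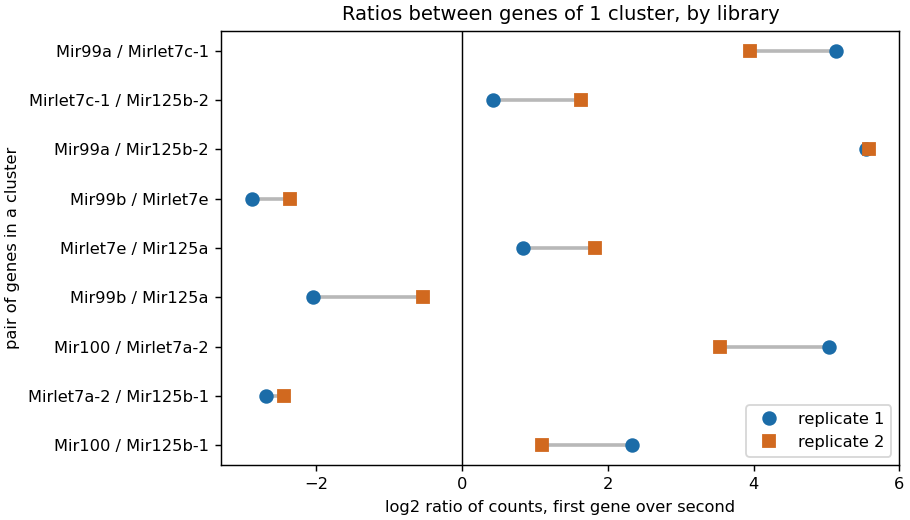
log2 ratio of counts between genes of 1 cluster, first gene over second, with a circle for replicate 1 and a square for replicate 2 joined by a line. The ratio of Mir99b to Mir125a moved furthest, -2.05 in replicate 1 and -0.54 in replicate 2, and that of Mir99a to Mir125b-2 moved least.

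The other let-7 genes, outside the clusters, were set beside the 3 within them. These were Mirlet7a-1, Mirlet7b, Mirlet7c-2, Mirlet7d, Mirlet7f-1, Mirlet7f-2, Mirlet7g, Mirlet7i and Mir98. Of these 9 genes, 2 were higher and 5 lower in replicate 1, with a median log2 ratio of -0.37. Mir7k, whose mature sequence is let-7k, had 1 and 2 counts and was not among them. Mirlet7a-1, which makes the same 5′ sequence as Mirlet7a-2, had 458 CPM in replicate 1, against 448 CPM in replicate 2. Its log2 ratio was 0.01 (adjusted p = 0.918 in the exact binomial test), against -0.92 for Mirlet7a-2. Mirlet7c-2, which makes the same 5′ sequence as Mirlet7c-1, had 1774 and 1611 CPM, a log2 ratio of 0.12 against -0.45 for Mirlet7c-1. The difference between the ratios of these copies was not tested. Multi-mapped reads of the shared 5′ sequences are in the count of neither copy. The miR-10 genes Mir10a and Mir10b, which are not let-7 genes, were read as well. They had 9.59 and 25.0 CPM in replicate 1 and 6.48 and 23.4 CPM in replicate 2. Their adjusted p-values were 0.205 and 0.812 in the exact binomial test.

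By level in the 2 libraries, the genes outside the clusters nearest to Mirlet7e were Mir744, at 31833 and 35582 CPM, and Mirlet7d, at distances of 0.08 and 0.51 log2 units. Nearest to Mir99a were Mir126a and Mir128-1, at 0.48 and 0.54, and nearest to Mir100 were Mirlet7f-2 and Mir342, at 0.26 and 0.30. With 2 libraries this likeness is one of level more than of pattern.

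Markers of cell types were read to check the tissue label. Neuronal microRNA genes had 6 of 9 at 10 CPM or more in both libraries. The rest were the Mir124a copies: Mir124a-1 at 2.34 and 3.74 CPM, Mir124a-3 at 4.68 and 0.997 CPM, and Mir124a-2 at 0. Whether reads of these copies were left out as multi-mapped was not tested, so their low counts do not show that miR-124 was scarce. Liver Mir122 had 47.5 and 79.8 CPM. The neuronal markers summed to 85535 CPM in replicate 1, against 53459 CPM in replicate 2. Mir132 alone gave 54937 and 30022 CPM of these sums. Mir138-1, at 5292 and 7354 CPM, and Mir138-2, at 3138 and 3610 CPM, were called lower in replicate 1, so the neuronal markers did not share a direction. The oligodendrocyte markers, 2 of 3 detected, summed to 5098 and 3543 CPM. The endothelial marker Mir126a was nearly equal, at 11394 and 10799 CPM. Red-cell markers were lower in replicate 1, at 56.9 and 771 CPM, with 1 of 2 detected. Leukocyte markers, 2 of 3 detected, summed to 1391 and 1131 CPM, most of it Mir150 at 1334 and 1091 CPM. Mir142 was nearly equal, at 40.5 and 39.1 CPM. Mir223 was called higher in replicate 1, at 16.4 and 0.499 CPM, which is 70 and 2 counts. Striated muscle markers, 1 of 5 detected, summed to 27.8 and 18.5 CPM. Several of these sums differed between the libraries, and their part in the ratios above was not tested. In bulk tissue, fewer cells of a type and less of a microRNA per cell cannot be told apart.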

How the data were processed

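MicroRNA libraries of left cerebral cortex were measured in 2 samples of 1 group. The deposited tables hold raw counts per microRNA gene, 1 table per library. Per the text files beside them, reads were mapped to mm10 and annotated with GENCODE M21. Which aligner, counter and trimming were used is not given in the sources used here. No column names are given. The columns were read as unstranded, own-strand and opposite-strand counts, and the own-strand column was used. Rows for unmapped, multi-mapped (42.8% and 39.9% of all reads in replicates 1 and 2), unassigned (4.56% and 4.39%) and ambiguous reads are not genes and entered neither totals nor tests.

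All 2202 identifiers matched GENCODE M21. With 1 group there is no contrast for a quasi-likelihood fit, so all genes with 10 or more counts were compared between the libraries by an exact binomial test on TMM sizes (edgeR 4.0.16, R 4.3.3), Benjamini-Hochberg adjusted at 0.05, with exact Clopper-Pearson 95% intervals. DESeq2 1.42.0 size factors were an alternative. The test was tried on simulated data. Sequences are RefSeq's (GRCm38.p6), with mature entries for 9 and hairpins for 7 of the 9 genes in the tables used here (hairpins of Mir125b-2 and Mir99b were not used). Stretches repeated between loci were searched in the 2202 GENCODE M21 microRNA transcripts, so copies outside annotated microRNA genes were not looked for. Other tools were pandas 2.3.3, SciPy 1.17.1, NumPy 2.4.6 and Matplotlib 3.10.9 under Python 3.11.15.

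Named were the 9 genes, the let-7 and miR-10 genes outside the clusters, and the 2 genes nearest in log2(CPM + 1) to the highest gene of each cluster. Mir7k, Gm25927 and Mir351 are named because a sequence or position search found them, and overlapping genes because the annotation lists them. The members and lists were chosen with earlier results of these data known. The background of genes with 1000 or more counts and the pairs of other neighbouring genes were chosen after seeing the data.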

Additional observations from a re-analysis of the deposited data

Results flagged for a closer look

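Several kinds of reads lie outside the counts per gene and exceed the limit set by a count of 0. In replicate 1, 42.8% of reads were multi-mapped, against 39.9% in replicate 2. How many of them came from let-7a, let-7c or miR-125b, whose 5′ arms are made at more than 1 locus, was not tested. In the unstranded column, 303325 reads of replicate 1 were called ambiguous, against 300389 of replicate 2. Mirlet7e alone had 129360 and 138441 own-strand counts beside 0 unstranded counts.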

How the results depend on the processing

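No paired analysis was possible because the study holds 1 group. Under DESeq2 size factors, total counts, totals of all reads, other count minimums and unstranded counts, all 53 values of the 9 genes' log2 ratios kept their direction and their call, though Mirlet7e has no unstranded value. The median log2 ratio of the 9 was -0.21, against -0.19 with DESeq2 size factors, -0.19 with total counts, -0.14 with all reads, and 0.073 with unstranded counts, where Mirlet7e drops out. Over genes with 1000 or more counts, 88 were higher and 84 lower in replicate 1, against 161 and 137 over all tested.

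Unstranded counts gave sums of 38622 CPM for the 9 genes, 20249 CPM for the chromosome 17 cluster and 724 CPM for the let-7 genes, with Mirlet7e at 0. Leaving out the most abundant gene from the total gave 76580 CPM for the 9 genes, against 68213 CPM. Per 1000000 of all reads the 9 genes summed to 24142. By cluster these sums were 4402 on chromosome 16, 18096 on chromosome 17 and 1644 on chromosome 9. By family they were 7255 for miR-99/100, 11679 for let-7 and 5208 for miR-125. Of 25 alternative values of the ratios within clusters, 0 reversed. Unstranded counts gave no ratio for pairs with Mirlet7e. With 2 libraries the SD rests on 1 difference, and the low counts of Mirlet7a-2 give the widest interval.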

Other observations

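A search of RefSeq's mature sequences for the 3 seeds found the miR-99/100 seed ACCCGUA at the 3 clustered genes and at 0 others. The miR-125 seed CCCUGAG was found at 3 further genes, Mir351, Mir6367 and Mir6394. Mir351 had 421 CPM in replicate 1, against 276 CPM in replicate 2. Its log2 ratio was 0.59 (adjusted p = 1.8e-26, exact binomial test). Mir6367 and Mir6394 had 0 counts in both libraries. The let-7 seed GAGGUAG was found at 11 further genes. Of these, Mir1961 had 0 counts in both libraries, and Mir7k, the gene of let-7k, had 1 and 2 counts. These genes were named after their values were seen.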
